A study of Mus musculus with 5 samples.

Results

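The genes described here build and run the DNA replication machinery. They comprise 50 named genes out of 24100 in the count table, chosen by gene symbol for their known role, and all 50 were found in the table. RNA was sequenced from cells sorted by flow cytometry from the back skin of male mice of a mixed CD1 and C57Bl6J background. The first group, quiescent melanocyte stem cells (McSC), held 2 libraries at postnatal days 60 and 62, in the second telogen, the resting phase of the hair cycle. These cells carried the Dct-eGFP reporter and were sorted as positive for it, with medium-low integrin α6 and without CD31, CD45, CD140a, Sca1 or CD34. The second group, melanocytes, held 3 libraries at postnatal day 10 in full anagen, the growth phase. These mice carried Dct-EGFP and Lef1-RFP, and the cells were sorted for both reporters and for c-Kit beside the gates of the first group. Each library pooled 2 to 4 males. The groups thus differed at once in age, in hair cycle stage, in reporters and in gate, and the parts of these in a difference cannot be told apart.

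Replication begins with licensing. The origin recognition complex (ORC) marks origins, and Cdc6 and Cdt1 then load the MCM2-7 helicase onto DNA before S phase. In S phase the kinase Cdc7 with its partner Dbf4, together with Cdc45 and the GINS complex, turns the loaded helicase on, and polymerases copy both strands behind it. Cells that leave the cell cycle are known to lose much of this licensing machinery. Quiescent McSC are the reserve of the pigment lineage in the resting follicle, and the pigment cells of each new hair derive from them.

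Most of the replication genes were higher in the melanocyte libraries, by amounts that ranged from 1.52-fold to 32.3-fold among those called. A gene was called when its Benjamini-Hochberg adjusted p in edgeR's quasi-likelihood test over all 16953 tested genes was under 0.05. Of the 50 members, all of which passed the filter on low counts, 41 were called higher in melanocytes, 2 were called higher in quiescent McSC and 7 were not called. Of all tested genes, 55.4% were called, 29.1% as higher in melanocytes and 26.2% as higher in quiescent McSC. The median log2 fold change (melanocyte minus quiescent McSC) was 1.56 over the members and 0.03 over all tested genes. Among the members, 36 were called at least 2-fold higher in melanocytes, against 20.3% of all tested genes, and 9 at least 8-fold higher, against 8.44%. The 9 were Mcm10, Tk1, Rrm2, Cdc6, Pole, Orc1, Gmnn, Cdc45 and Mcm2. At the other end, Mcm4, Pcna, Pold3, Gins2 and the ORC genes Orc2 to Orc5 differed by at most 1.24-fold between the groups. Each library's level is given as CPM, the gene's count as a share of the library total, scaled by TMM factors. In 43 members every melanocyte library was above both quiescent McSC libraries, which held for 38.1% of tested genes, and in 5 every melanocyte library was below them, which held for 36.4% (74.5% for either direction). The groups overlapped in Gins2 and Pold3. With library size as the only scaling the median log2 fold change of all tested genes moved from 0.03 to 0.26, the share of calls that were higher in melanocytes from 52.6% to 63.7%, and the members called from 41 higher and 2 lower to 43 and 0.

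**Figure D1:**
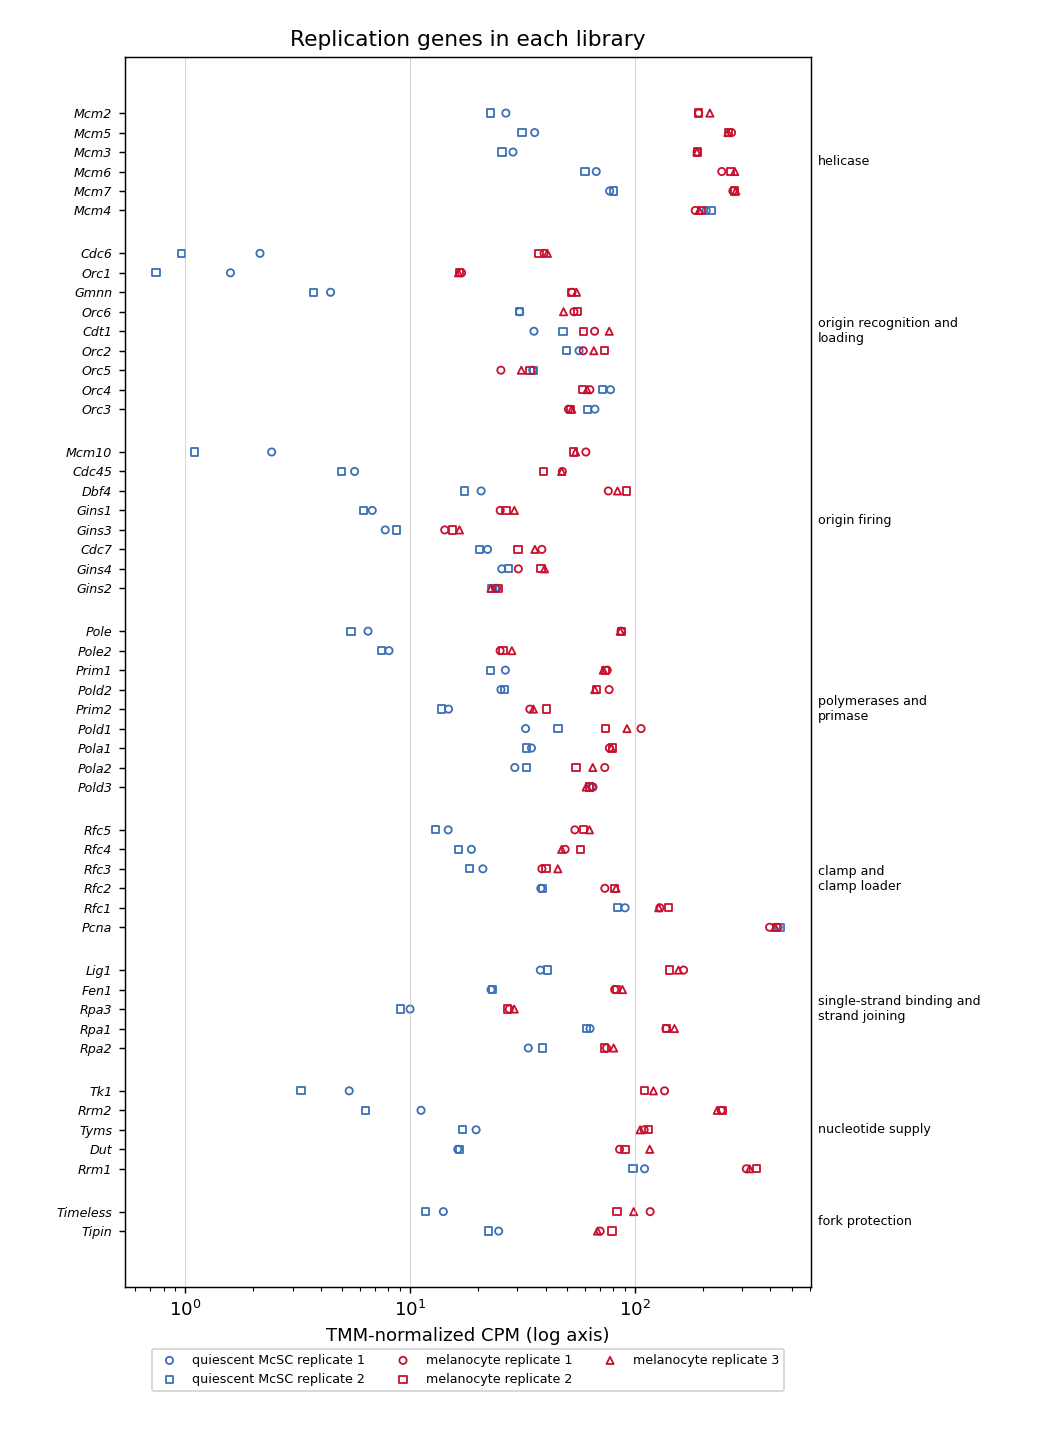
TMM-normalized CPM (log axis) of the 50 replication genes in each of the 5 libraries, grouped by role, with blue symbols for quiescent McSC and red for melanocytes. Mcm10, Cdc6, Tk1 and Rrm2 show the widest gaps between the colours, while the symbols of Pcna, Mcm4, Pold3 and Gins2 lie together.

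Markers of other skin cell types were detected in these bulk libraries, in which fewer cells of a type and less RNA per cell cannot be told apart. Markers of hair matrix, sheath and shaft (11 genes, all called higher in melanocytes) summed to between 3860 and 5220 CPM in the melanocyte libraries and to 98.4 and 50.3 CPM in quiescent McSC replicates 1 and 2. Tchh and Krt25 led this list, with Tchh at 1382, 2227 and 1130 CPM in melanocytes and at 2.23 and 2.86 CPM in quiescent McSC. Fibroblast and dermal papilla markers (9 of 10 called higher) summed to between 1910 and 5540 CPM against 52.4 and 18.7 CPM, led by Col3a1 and Col1a2, although both sorts excluded CD140a, the product of Pdgfra. The 5 endothelial markers were all called higher in melanocytes, at no more than 40.9 CPM in sum, in spite of the gate against CD31. Of 5 immune markers 2 were called higher and 2 lower in melanocytes, with sums from 12.1 to 30.1 CPM over the 5 libraries. Of 5 Schwann cell markers 2 were higher and 3 lower, with sums of 836 and 1060 CPM in quiescent McSC and from 185 to 251 CPM in melanocytes. Of 8 keratinocyte markers 3 were higher and 4 lower, with sums of 2830 and 3960 CPM against 3000 to 4290 CPM. These similar sums held large differences in both directions. Krt5, Dsp and Trp63 were higher in melanocytes, by 2.05- to 7.24-fold. Krt15, Krt1, Krt10 and Krtdap were higher in quiescent McSC, by 3.91- to 32.3-fold. Hair matrix cells divide rapidly in anagen, and the part of their RNA in the differences between the groups was not tested. The melanocyte markers (Dct, Tyr, Tyrp1, Pmel, Mlana, Mitf, Sox10, Kit and Pax3) were detected in all libraries. They summed to 20200 and 21700 CPM in quiescent McSC, and to 3020, 17700 and 19200 CPM in melanocyte replicates 1 to 3, so replicate 1 stood apart. Of the 9, 4 were called lower and 0 higher in melanocytes. The 4 were Mitf, Sox10, Kit and Pax3, each lower in every melanocyte library than in both quiescent McSC libraries. Pax3 read 1189 and 1388 CPM in quiescent McSC and 25.0, 69.9 and 87.2 CPM in melanocytes. Kit, the gene of the sorted c-Kit, read 1657 and 1540 CPM against 157, 454 and 484 CPM (log2 fold change -2.13 ± 0.46 SE, adjusted p = 0.00923). With melanocyte replicate 1 left out, 4 other genes of the 9 were called higher. The sum of the 50 replication genes did not set replicate 1 apart. It was 5011, 5044 and 5129 CPM in melanocyte replicates 1 to 3, and 2095 and 2059 CPM in quiescent McSC. In melanocyte replicates 1 to 3 the hair matrix, sheath and shaft markers summed to 4300, 5220 and 3860 CPM. The fibroblast and dermal papilla markers summed to 5540, 2050 and 1910 CPM there, and the proliferation marker Mki67 read 919, 873 and 872 CPM. Which cells of these libraries the replication RNA came from was not tested. Without melanocyte replicate 1, 43 members were called higher in melanocytes and 1 in quiescent McSC. Total counts ranged from 17512381 to 124530834 per library, and a count of 3 was worth between 0.0268 and 0.16 CPM.

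**Figure D2:**
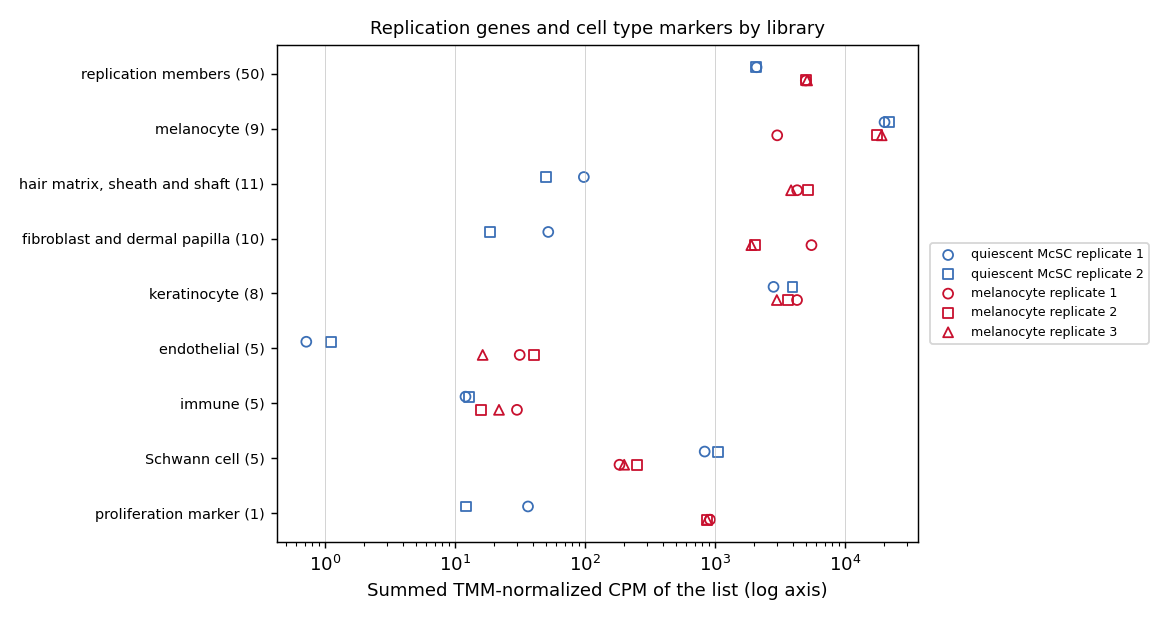
Summed TMM-normalized CPM (log axis) of the 50 replication genes, of the marker lists of skin cell types and of Mki67, a proliferation marker, in each library. Melanocyte replicate 1 lies far below the other melanocyte libraries for melanocyte markers (3020 against 17700 and 19200 CPM), whereas the 3 libraries lie between 5011 and 5129 CPM for the replication genes.

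The MCM2-7 helicase is a ring of 6 different subunits present in equal number. In the melanocyte libraries the 6 genes read within a narrow range, and in the quiescent McSC libraries 5 of them were low while Mcm4 was not. Mcm2 read 26.7 and 22.9 CPM in quiescent McSC and 192, 192 and 215 CPM in melanocytes (log2 fold change 3.01 ± 0.14 SE, adjusted p = 5.73e-05). Mcm5 read 35.8 and 31.5 CPM against 269, 261 and 259 CPM (2.97 ± 0.13, adjusted p = 4.61e-05), and Mcm3 read 28.7 and 25.6 CPM against 189, 189 and 188.5 CPM. Mcm6 and Mcm7 started from a higher level in quiescent McSC. Mcm6 read 67.2 and 59.95 CPM there and 243, 266 and 278 CPM in melanocytes (2.04 ± 0.13), and Mcm7 read 77.1 and 80.3 CPM against 272.5, 277 and 281 CPM (1.81 ± 0.11). In each of these 5 genes the lowest melanocyte library was more than 3-fold above the highest quiescent McSC library.

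Mcm4 (Entrez gene 17217, chromosome 16, 15623897 to 15637400 on GRCm38) was the subunit without a call. It read 207 and 218 CPM in quiescent McSC and 185, 198 and 193 CPM in melanocytes (log2 fold change -0.15 ± 0.11 SE, adjusted p = 0.277). With library size as the only scaling the sign turned (0.08, adjusted p = 0.529). Divided by transcript length, Mcm4 stood at 59.2 CPM per kb in quiescent McSC, against 7.34 for Mcm2, 8.95 for Mcm3, 9.95 for Mcm5, 14.6 for Mcm6 and 26.6 for Mcm7. In melanocytes the 6 genes lay between 53.5 CPM per kb for Mcm4 and 93.5 for Mcm7. The ratio of Mcm4 to the mean of the other 5 subunits, per kb, was therefore 4.17 and 4.63 in quiescent McSC and 0.744, 0.784 and 0.743 in melanocytes. The order of Mcm4 above the other subunits in quiescent McSC was the same with all annotated exons as the length, where Mcm4 was at 59.2 and Mcm7, the next, at 17.8 CPM per kb. In melanocytes the ratio was then 0.997, 1.05 and 0.999.

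**Figure D3:**
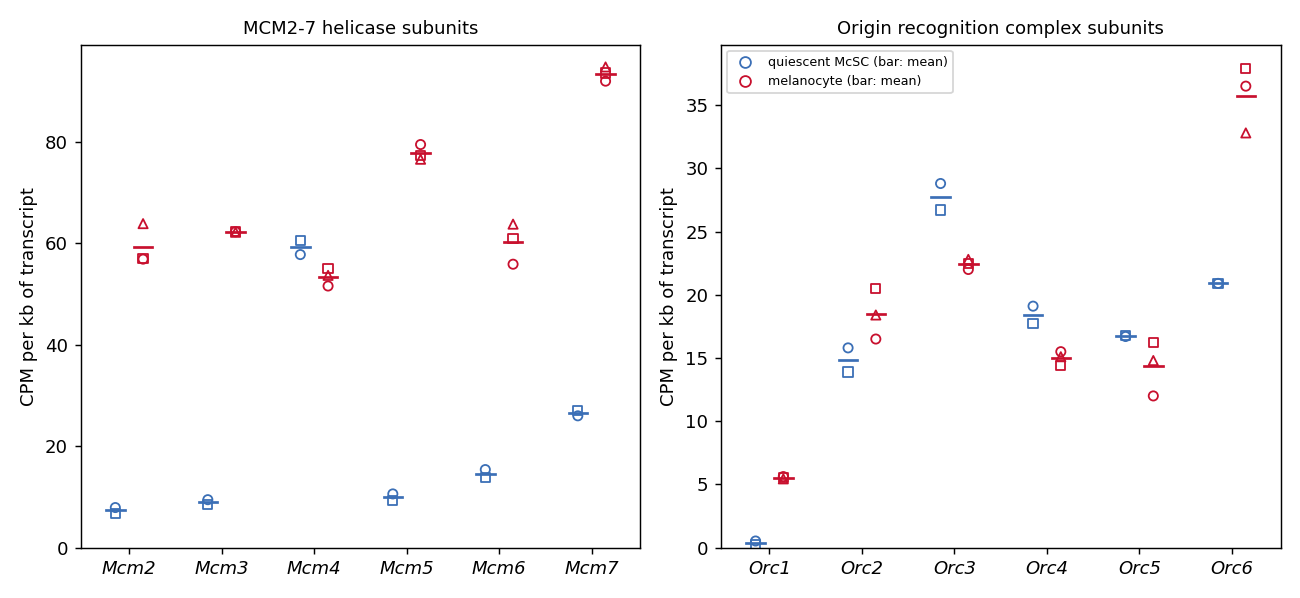
CPM per kb of transcript for the MCM2-7 subunits (left) and the ORC subunits (right), with a symbol per library (circle, square and triangle for replicates 1, 2 and 3) and a bar at the group mean. Mcm4 alone among the MCM genes is near 59.2 in quiescent McSC and 53.5 in melanocytes, and among the ORC genes Orc1 is near 0 in quiescent McSC.

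Within the origin recognition complex, the subunit Orc1 was 14.4-fold higher in melanocytes, whereas Orc2 to Orc5 differed by at most 1.24-fold. Orc1, the subunit whose level is known to vary with the cell cycle, read 1.59 and 0.741 CPM in quiescent McSC and 16.9, 16.6 and 16.4 CPM in melanocytes (log2 fold change 3.85 ± 0.39 SE, adjusted p = 0.000526). Orc6 rose less, from 30.7 CPM in both quiescent McSC libraries to 53.5, 55.6 and 48.1 CPM (0.77 ± 0.12, adjusted p = 0.00234). Orc2 stood at 56.4 and 49.5 CPM against 58.9, 73.0 and 65.6 CPM and was not called (0.32 ± 0.13, adjusted p = 0.0893), although it was called higher in melanocytes with library size only (0.53, adjusted p = 0.011) and without melanocyte replicate 1 (0.39, adjusted p = 0.0329). Orc5 stood at 35.1 and 35.35 CPM against 25.3, 34.2 and 31.2 CPM and was not called either (-0.22 ± 0.16, adjusted p = 0.276).

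Orc3 and Orc4 were the members called higher in quiescent McSC, by small margins. Orc3 read 66.35 and 61.4 CPM there and 50.6, 51.8 and 52.3 CPM in melanocytes (-0.31 ± 0.10 SE, adjusted p = 0.0382). Orc4 read 77.8 and 72.0 CPM against 63.0, 58.6 and 61.2 CPM (-0.30 ± 0.10, adjusted p = 0.0441). The adjusted p ranged from 0.0101 to 0.506 for Orc3 and from 0.0142 to 0.614 for Orc4 over the alternatives. Leaving out any 1 of the 5 libraries ended both calls, except that Orc4 kept its call without melanocyte replicate 1. Per kb of transcript, Orc1 was at 0.386 in quiescent McSC where Orc2 to Orc5 lay between 14.9 and 27.8, and at 5.53 in melanocytes where they lay between 14.4 and 22.4. The ratio of Orc1 to the mean of these 4 subunits was 0.0262 and 0.0131 in quiescent McSC and 0.341, 0.3 and 0.306 in melanocytes. With all annotated exons as the length it was 0.0438 and 0.0222 against 0.539, 0.468 and 0.485, and Orc1 was then close to Orc5 in melanocytes (4.79 and 4.90 CPM per kb).

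The loading factor Cdc6 and the licensing inhibitor Gmnn were among the genes with the lowest levels in quiescent McSC. Cdc6, the ATPase that recruits the helicase to ORC, read 2.15 and 0.964 CPM there and 39.4, 37.4 and 40.8 CPM in melanocytes (log2 fold change 4.67 ± 0.39 SE, adjusted p = 0.000278). Gmnn, whose protein geminin binds Cdt1 and blocks loading outside G1, read 4.43 and 3.72 CPM against 52.45, 52.25 and 54.95 CPM (3.71 ± 0.15, adjusted p = 4.5e-05). Cdt1, the helicase loader itself, differed much less, at 35.5 and 47.8 CPM against 66.1, 59.0 and 76.8 CPM (0.69 ± 0.18, adjusted p = 0.0188). Its call ended when quiescent McSC replicate 1 was left out (0.49, adjusted p = 0.114) and under the replicate block (0.60, adjusted p = 0.0722). The ratio of the inhibitor to the loader, Gmnn over Cdt1 per kb, was 0.284 and 0.178 in quiescent McSC and 1.8, 2.01 and 1.63 in melanocytes, so Cdt1 was the more abundant RNA in the first group and Gmnn in the second.

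Promoter sequences were examined because the E2F transcription factors are known to drive many of these genes at the G1/S transition. RefSeq windows on GRCm38.p6, from 250 bases before to 50 bases after a listed transcript start, were matched for 41 of the 50 members (50 windows). Each window was searched on both strands for the E2F letters TTTCCCGC, TTTGGCGC, TTTGCCGC and TTTCGCGC. TTTGGCGC and the reverse complement of TTTCGCGC can overlap, and overlapping matches were counted once. A match was found in 15 of the 41 members (36.6%), against 4.28% of the 13166 tested genes with a window and 2.6% of all 27025 genes with a window. Counted by window, 15 of the members' 50 windows held a match, against 744 of all 32851 windows of that length (2.26%). Matches occurred in 13 of 35 members called higher in melanocytes (37.1%) and in 2 of 6 others (33.3%), namely Orc3 and Pold3. Of the 7 members at least 8-fold higher in melanocytes that had a window, 2 held a match (28.6%). These were Cdc6 and Orc1, and the windows of Mcm10, Cdc45, Mcm2, Rrm2 and Tk1 held none. CCAAT, the box bound by NF-Y, was in 23 of the 41 members (56.1%) against 42.2% of tested genes. The CHR element, searched as TTTGAA and TTCGAA, was in 9 (22.0%) against 17.2%. The 160 bases before the start are shown for Cdc6, Mcm5 and Mcm6, which were higher in melanocytes. Stretches of 30 bases are shown for Orc1, which was also higher, and for Orc3, which was not, because annotated exons lie around both. The longer stretches are not all clear of annotated genes either. The annotated span of Cdc6 begins at 98907709 and takes in its whole stretch, and that of Mcm5 begins at 75109468, within its stretch. Each is read 5′ to 3′ on the gene's strand, with E2F letters in capitals.
Cdc6, chr11:98907991-98908150, plus strand: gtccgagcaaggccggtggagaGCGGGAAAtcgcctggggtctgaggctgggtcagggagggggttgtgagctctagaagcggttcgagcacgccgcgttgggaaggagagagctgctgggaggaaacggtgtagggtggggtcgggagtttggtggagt
Orc1, chr4:108579413-108579442, plus strand: ggtttcggttagtgGCGCGAAAagttttct
Mcm5, chr8:75109349-75109508, plus strand: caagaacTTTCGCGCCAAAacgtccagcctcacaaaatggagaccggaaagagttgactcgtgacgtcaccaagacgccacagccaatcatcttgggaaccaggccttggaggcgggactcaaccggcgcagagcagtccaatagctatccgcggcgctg
Mcm6, chr1:128359706-128359865, minus strand: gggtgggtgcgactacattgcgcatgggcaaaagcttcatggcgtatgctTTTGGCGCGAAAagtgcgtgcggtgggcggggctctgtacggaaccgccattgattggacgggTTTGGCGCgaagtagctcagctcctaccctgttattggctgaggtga
Orc3, chr4:34614965-34614994, minus strand: ccatgcctcccTTTCCCGCacgccccgcct
In these stretches Orc1 and Orc3 each hold 1 match close to the start, although Orc1 was 14.4-fold higher in melanocytes and Orc3 was not higher. Mcm5 and Mcm6 hold overlapping pairs of the letters in opposite orientation. A match describes the letters and does not show that a factor binds there.

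Genes that fire licensed origins were higher in melanocytes for 6 of 8 members. Mcm10, a scaffold that opens the activated helicase, had the largest fold change of the 50, at 2.42 and 1.10 CPM in quiescent McSC and 60.5, 53.1 and 54.5 CPM in melanocytes (log2 fold change 5.01 ± 0.38 SE, adjusted p = 0.000213). Cdc45, which with GINS completes the active helicase, read 5.66 and 4.95 CPM against 47.5, 39.3 and 47.2 CPM (3.07 ± 0.17, adjusted p = 8.07e-05). Both were at under 6 CPM in quiescent McSC, and their groups lay far apart. The kinase gene Cdc7 and the gene of its activating subunit Dbf4 were both called. Dbf4 read 20.7 and 17.4 CPM against 76.1, 91.9 and 83.6 CPM (2.14 ± 0.15, adjusted p = 0.000146), and Cdc7 read 22.1 and 20.4 CPM against 38.5, 30.2 and 35.9 CPM (0.71 ± 0.15, adjusted p = 0.00896). Cdc7 was no longer called when quiescent McSC replicate 2 was left out (0.65, adjusted p = 0.0713).

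The 4 GINS genes, whose products form a complex of equal parts, differed in call. Gins1 read 6.79 and 6.21 CPM in quiescent McSC and 25.15, 26.7 and 29.1 CPM in melanocytes (2.05 ± 0.17 SE, adjusted p = 0.000254). Gins3 read 7.75 and 8.69 CPM against 14.25, 15.4 and 16.6 CPM (0.91 ± 0.18, adjusted p = 0.00711), a call that ended when quiescent McSC replicate 1 was left out (adjusted p = 0.0544). Gins4 was at 25.55 and 27.5 CPM against 30.3, 38.2 and 39.6 CPM and was not called (0.44 ± 0.16, adjusted p = 0.0542), although it was called by DESeq2 (adjusted p = 0.0341) and limma-voom (adjusted p = 0.0485). Gins2 was at 23.9 and 23.1 CPM against 24.2, 24.6 and 22.9 CPM (0.03 ± 0.13, adjusted p = 0.88), so its groups overlapped. Per kb, Gins2 was at 0.982 and 1.04 of Gins1 in quiescent McSC and was at 0.269, 0.257 and 0.219 of Gins1 in melanocytes. With all annotated exons as the length these ratios were 1.3 and 1.38 against 0.357, 0.341 and 0.291. On average Gins1, Gins2, Gins3 and Gins4 were at 5.98, 6.03, 3.26 and 19.6 CPM per kb of transcript in quiescent McSC. In melanocytes they were at 24.8, 6.13, 6.11 and 26.7.

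Of the 9 polymerase and primase genes, 8 were called higher in melanocytes, 7 of them by between 2.07- and 3.41-fold. The exception in size was Pole, the catalytic subunit of the leading-strand polymerase epsilon. It read 6.50 and 5.45 CPM in quiescent McSC and 86.7, 87.3 and 86.0 CPM in melanocytes (log2 fold change 3.86 ± 0.14 SE, adjusted p = 3.82e-05). Its partner Pole2 differed less, at 8.05 and 7.46 CPM against 25.1, 25.9 and 28.3 CPM (1.77 ± 0.16, adjusted p = 0.000357). The genes of polymerase alpha and primase, which start each strand, were all called, with log2 fold changes of 1.21 for Pola1, 1.05 for Pola2, 1.58 for Prim1 and 1.36 for Prim2. Polymerase delta, the main lagging-strand polymerase, had called and uncalled subunits. Its catalytic subunit Pold1 read 32.6 and 45.4 CPM against 106, 74.0 and 92.1 CPM (1.22 ± 0.21, adjusted p = 0.00422), and Pold2 read 25.3 and 26.4 CPM against 76.7, 67.6 and 66.2 CPM (1.44 ± 0.12). The accessory subunit Pold3 stood at 64.3 and 62.6 CPM against 65.0, 62.9 and 60.7 CPM (-0.01 ± 0.10, adjusted p = 0.917). The groups of Pold3 overlapped, and the sign of its difference turned in 6 alternatives without a call.

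The sliding clamp Pcna (Entrez gene 18538, chromosome 2, 132249286 to 132253180) had the highest level of the members per kb in both groups. It read 434 and 441.5 CPM in quiescent McSC and 397, 425 and 420.3 CPM in melanocytes (log2 fold change -0.08 ± 0.12 SE, adjusted p = 0.602), and the sign turned with library size only (0.14, adjusted p = 0.304). The genes of its loader, the RFC complex, were all called higher in melanocytes. Rfc1, the large subunit, read 90.35 and 83.8 CPM against 129, 140.5 and 127.5 CPM (0.60 ± 0.10, adjusted p = 0.00401). Log2 fold changes of the small subunits were 1.04 for Rfc2, 1.07 for Rfc3, 1.54 for Rfc4 and 2.08 for Rfc5, with SE of at most 0.15. The ratio of Pcna to the mean of the 5 loader genes, per kb, was 22.6 and 25.4 in quiescent McSC and between 9.7 and 10 in the 3 melanocyte libraries.

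Genes that coat single-stranded DNA and finish the lagging strand were higher in melanocytes without exception, by 2.10- to 3.92-fold. The 3 subunit genes of replication protein A, which binds single-stranded DNA, had log2 fold changes of 1.19 (Rpa1), 1.07 (Rpa2) and 1.55 (Rpa3). Fen1, the flap nuclease that trims Okazaki fragments, read 22.9 and 23.2 CPM in quiescent McSC and 81.2, 83.0 and 87.9 CPM in melanocytes (1.87 ± 0.10 SE, adjusted p = 8.45e-05). Lig1, the ligase that seals them, read 37.9 and 40.8 CPM against 164.5, 143 and 156 CPM (1.97 ± 0.12, adjusted p = 9.88e-05). The fork protection genes Timeless and Tipin, whose products form a heterodimer that travels with the helicase, were also called. Timeless read 14.05 and 11.7 CPM against 117, 83.2 and 98.6 CPM (2.95 ± 0.20), and Tipin 24.75 and 22.2 CPM against 70.0, 79.05 and 68.1 CPM (1.62 ± 0.13).

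Nucleotide supply held some of the widest differences. All 5 genes were called higher in melanocytes, with a median log2 fold change of 2.59. Tk1, the S-phase thymidine kinase of the salvage route, read 5.36 and 3.27 CPM in quiescent McSC and 135, 110.5 and 121 CPM in melanocytes (4.83 ± 0.27 SE, adjusted p = 8.34e-05). Rrm2, the regulated subunit of ribonucleotide reductase, read 11.2 and 6.35 CPM against 242, 245 and 232 CPM (4.78 ± 0.29, adjusted p = 0.000104). The large subunit Rrm1 kept a higher level in quiescent McSC, at 110.3 and 98.05 CPM against 313, 346 and 323.5 CPM (1.65 ± 0.13, adjusted p = 0.00022). Rrm2 was at 0.185 and 0.118 of Rrm1 per kb in quiescent McSC and at 1.4, 1.29 and 1.31 of it in melanocytes. With all annotated exons as the length these ratios were 0.403 and 0.257 against 3.07, 2.81 and 2.85. Tyms, which makes thymidylate, read 19.65 and 17.05 CPM against 109.8, 115 and 105.4 CPM (2.59 ± 0.12), and Dut, which hydrolyses dUTP, 16.3 and 16.6 CPM against 85.4, 90.2 and 116 CPM (2.56 ± 0.17).

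**Figure D4:**
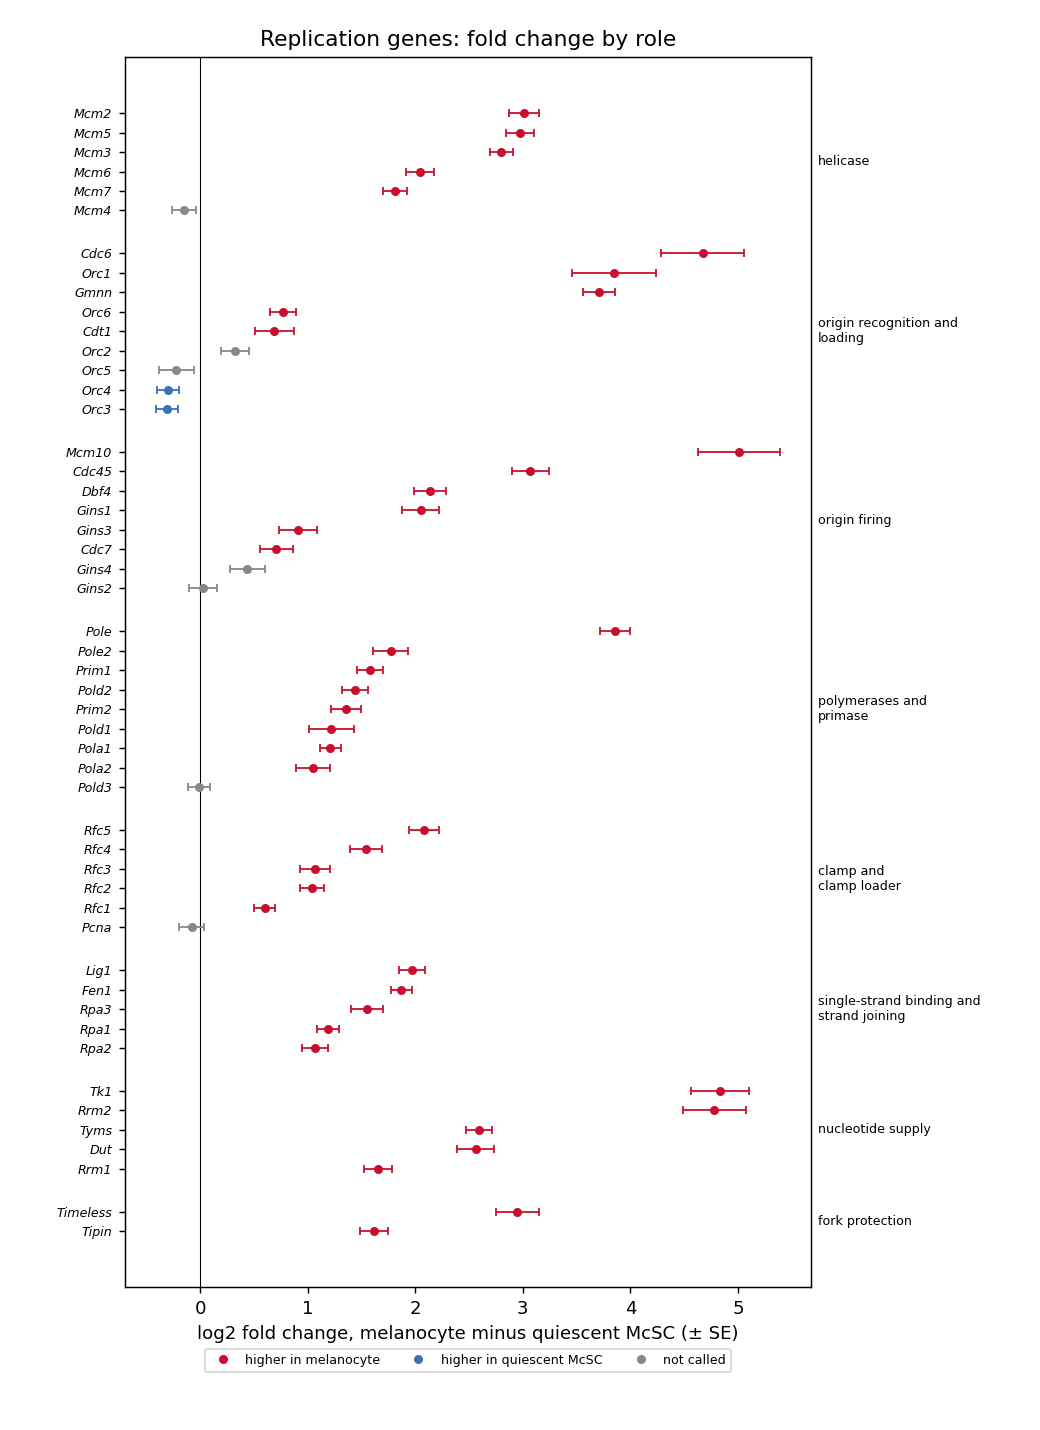
Log2 fold change (melanocyte minus quiescent McSC) with its standard error for the 50 members by role, in red where called higher in melanocytes, blue where called higher in quiescent McSC and grey where not called. Every role group except single-strand binding and strand joining, nucleotide supply and fork protection holds at least 1 grey point near 0.

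The members varied little among the melanocyte libraries. The highest melanocyte library was at most 1.44 times the lowest for any member (Pold1), with a median of 1.125. The median was 1.24 over the 10301 tested genes with a mean of at least 10 CPM over the 5 libraries. All members passed that mean, the lowest being at 10.5 CPM. Genes low in melanocytes could pass it through the quiescent McSC libraries, so the 2 medians are not matched for level in melanocytes. Between the 2 quiescent McSC libraries the spread was uneven. Mcm10, Cdc6, Orc1, Rrm2 and Tk1 were at least 1.5-fold higher in replicate 1 than in replicate 2, and no member was 1.5-fold lower. The ratio was 2.23 for Cdc6 (134 and 108 counts, exact 95% binomial interval 1.72 to 2.9), 2.21 for Mcm10 (1.73 to 2.82), 2.14 for Orc1 (1.59 to 2.91), 1.76 for Rrm2 (1.58 to 1.96) and 1.64 for Tk1 (1.41 to 1.91). These intervals cover counting error only. For the other 45 members the ratio lay between 0.718 and 1.2. In all, 34 members were higher in replicate 1, with a median ratio of 1.08. Over the 10301 tested genes of at least 10 mean CPM, 48.3% were, with a median of 0.994. The share of those genes beyond 1.5-fold was not counted. Of the 48 other pathway genes 31 were higher in replicate 1, most of all Uhrf1 (2.22) and Top2a (2.14). The proliferation marker Mki67 moved the same way, at 36.6 and 12.2 CPM, as did the sums of hair follicle markers (98.4 and 50.3 CPM) and fibroblast markers (52.4 and 18.7 CPM), and their part in this difference was not tested. All 5 genes stayed called higher in melanocytes without either quiescent McSC library.

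The pathway list held 48 other genes, among them chromatin assembly genes, cyclins and nucleotide enzymes. Of these, 34 were called higher in melanocytes, 6 higher in quiescent McSC and 8 not called, with a median log2 fold change of 1.56. Over all tested genes the same directions, in that order, held 29.1% and 26.2%, with a median of 0.03. Calls toward quiescent McSC were thus a smaller share of this list than of all tested genes. Ticrr, which brings Cdc45 to origins, stood at 1.53 CPM on average in quiescent McSC and 52.8 CPM in melanocytes (5.12 ± 0.22 SE, adjusted p = 4.83e-05). Dna2, a nuclease of Okazaki fragment processing, differed by 3.77 ± 0.19, and Asf1b, a histone chaperone, by 2.99 ± 0.13. Enzymes of nucleotide supply were among those with the smallest p. Dck, the deoxycytidine kinase, read 10.99 and 11.35 CPM against 80.6, 80.4 and 82.1 CPM (2.86 ± 0.11, adjusted p = 4.31e-05), and Shmt1, of folate metabolism, differed by 2.83 ± 0.13.

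The 6 pathway genes called higher in quiescent McSC included enzymes that handle nucleotides outside S phase. Rrm2b, the p53-regulated alternative small subunit of ribonucleotide reductase, read 56.4 and 51.3 CPM in quiescent McSC and 10.7, 14.6 and 15.8 CPM in melanocytes (-1.98 ± 0.19 SE, adjusted p = 0.00044). Tk2, the mitochondrial thymidine kinase, read 43.0 and 42.2 CPM against 16.2, 18.3 and 17.0 CPM (-1.31 ± 0.12, adjusted p = 0.000422). Samhd1, which degrades deoxynucleotides, read 94.4 CPM in both quiescent libraries against 37.8, 33.85 and 32.45 CPM (-1.44 ± 0.11, adjusted p = 0.000201). For Rrm2 with Rrm2b, and for Tk1 with Tk2, the S-phase form and its alternative changed places between the groups. Rrm2 was at 0.411 and 0.258 of Rrm2b per kb in quiescent McSC and at 46.8, 34.9 and 30.6 times it in melanocytes. Tk1 was at 0.208 and 0.13 of Tk2 in the former and at 14.0, 10.1 and 11.9 times it in the latter. With all annotated exons as the length, Rrm2 over Rrm2b was 0.653 and 0.408 against 74.2, 55.2 and 48.5, and Tk1 over Tk2 was 0.0856 and 0.0532 against 5.74, 4.16 and 4.88.

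Cdkn1a, the gene of the CDK inhibitor p21 that also binds Pcna, was the fourth gene of that direction, at 503 and 651 CPM against 150.3, 152.5 and 112 CPM (-2.06 ± 0.19 SE, adjusted p = 0.000424). The small polymerase subunit genes Pole4 (-1.02 ± 0.21, adjusted p = 0.00707) and Pold4 (-0.49 ± 0.16, adjusted p = 0.0425) were also higher in quiescent McSC, whereas Pole3, the partner of Pole4, was higher in melanocytes (0.76 ± 0.12, adjusted p = 0.00307). The call of Pold4 ended in 8 alternatives. These were library size only (-0.26, adjusted p = 0.241), no filter (adjusted p = 0.0564), thinned libraries (0.0547), the replicate block (0.163) and leaving out any library other than melanocyte replicate 1 (between 0.0807 and 0.178). The call of Pole4 ended with quiescent McSC replicate 1 left out (adjusted p = 0.0502). Of the MCM relatives that do not belong to the ring, Mcm8 was higher in melanocytes (1.08 ± 0.18, adjusted p = 0.00324), and Mcm9 was not called at 25.0 CPM on average in quiescent McSC and 21.35 CPM in melanocytes (-0.23 ± 0.14, adjusted p = 0.22).

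**Figure D5:**
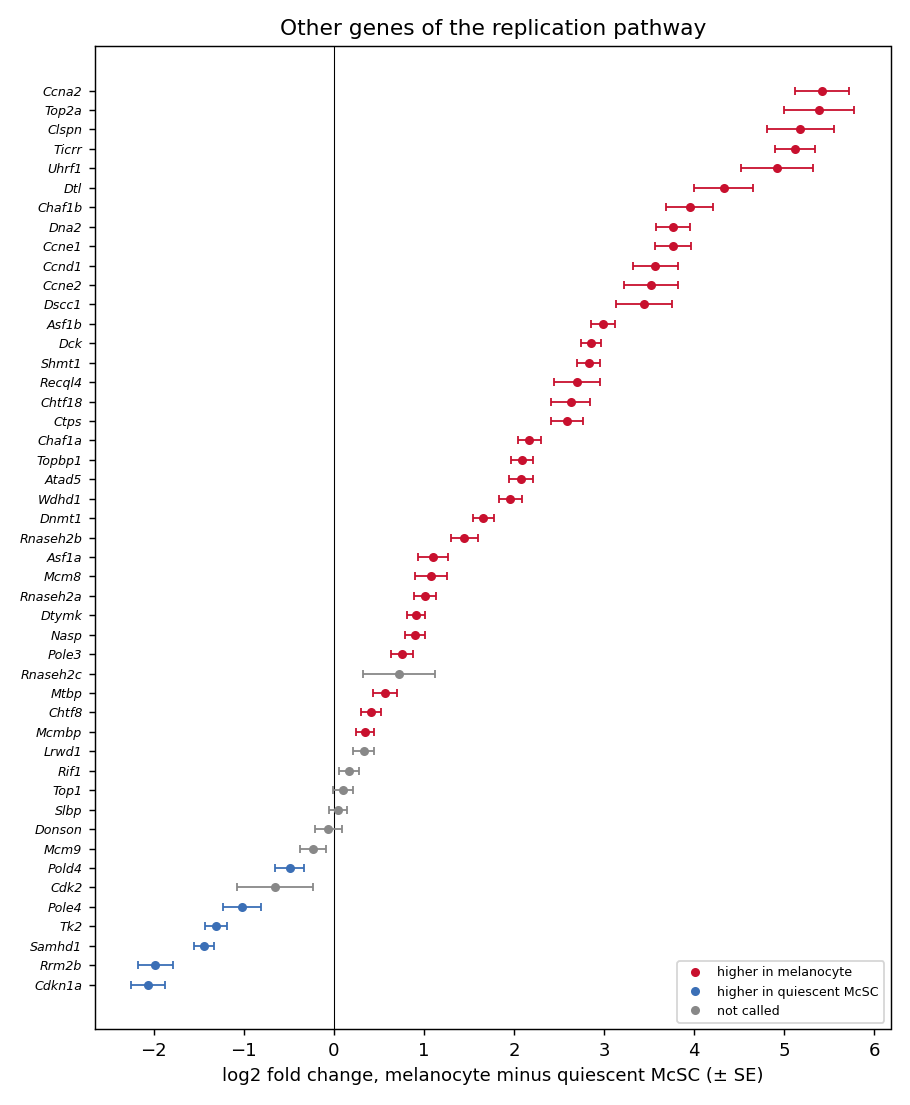
Log2 fold change (melanocyte minus quiescent McSC) with its standard error for other genes of the replication pathway, sorted by size and coloured by call. Cdkn1a, Rrm2b, Samhd1, Tk2, Pole4 and Pold4 are the blue points, from -2.06 to -0.49, and Ticrr is among the highest red points with 5.12.

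The annotated spans of 15 members overlap another gene of the table, and in 12 of these the other gene had at least 10% of the member's counts. Orc1 shares 3632 bases with Prpf38a, Orc3 shares 185 with Akirin2 and 7 with Rars2, Orc4 shares 3404 with Mbd5 and 441 with Acvr2a, and Cdc45 shares 237 with Ufd1. Gins2 shares 118 bases with Gse1, Pold2 shares 69 with Aebp1 and Rfc4 shares 185 with Eif4a2. Lig1 shares 1547 bases with Zswim9, Pole2 shares 477 with Klhdc1 and Fen1 shares 192 with Tmem258. Mcm7 shares 91 bases with Ap4m1 and Rpa1 shares 22 with Smyd4. Whether the counting used strand is not given in the sources used here, so reads from such shared bases cannot be assigned to 1 gene with certainty.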

How the data were processed

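Libraries of messenger RNA from sorted cells were read on an Illumina instrument, per the labels' protocols. The authors deposited read counts per gene, with no normalization. The submitters' processing notes name the build mm10, STAR 2.5.2a and Salmon 0.8.2. Which step each tool served, how reads were counted and with which gene models is not given in the sources used here. Each library is a biological replicate pooling 2 to 4 males, per the labels. Of 24100 Entrez identifiers, 24045 matched a RefSeq symbol (GRCm38.p6).

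Counts were filtered with filterByExpr, scaled with TMM and tested in R 4.3.3 with edgeR 4.0.16 (two-sided quasi-likelihood F-test, all 5 libraries, no covariate, Benjamini-Hochberg adjustment over all tested genes, threshold 0.05). Tests were tested on simulated data first. The value after ± is the standard error of a log2 fold change, taken as its absolute value divided by the square root of the F statistic. Levels per kb used the longest GENCODE M21 transcript linked to a RefSeq NM entry, with all annotated exons as an alternative, added for the ratios between genes after seeing the data. Alternatives were RLE factors, library size only, library sizes without the 20 most abundant genes, no filter, at least 5 CPM in 2 libraries, DESeq2 1.42.0, limma-voom (limma 3.58.1), robust dispersion, thinning to the shallowest library, a replicate block and leaving out each library. The members and lists were chosen with earlier results of these data known. Named genes were all members, the 6 other pathway genes per direction with the smallest p, Mcm8, Mcm9, Pold4 and Pole3, the 2 most abundant genes per marker list, and Mki67. Further pathway genes and markers given in the text were named after their values were seen. The listed marker Krt85 was not used, and 1 pathway gene that the rule names is counted but not reported here.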

Additional observations from a re-analysis of the deposited data

How the results depend on the processing

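Over 15 alternatives, 39 of the 50 members kept both their direction and their call, and the number called higher in melanocytes stayed between 39 and 43. The number called higher in quiescent McSC was 2, and it was 0 with library size only and without a filter, 1 with the stricter filter and with thinned libraries, and between 0 and 1 when each library was left out. Leaving out libraries gave between 6265 and 10005 called genes over the whole table. The causes were not tested. Signs of uncalled genes turned as follows. With library size only, log2 fold changes were 0.08 for Mcm4, 0.14 for Pcna, 0.21 for Pold3 and 0.16 for Donson. Pold3 was at 0.01 with the stricter filter, 0.03 with thinned libraries and between -0.04 and 0.02 when each library was left out (0.004 without quiescent McSC replicate 1). With each library left out, Gins2 lay between -0.02 and 0.06 and Slbp between -0.001 and 0.09. Same-numbered libraries of the 2 groups came from mice of different ages and reporters. Their deviations from the group means correlated at 0.04 for number 1 and -0.055 for number 2. With only 2 quiescent McSC libraries the deviations of these mirror each other, so the correlations cannot decide whether libraries were paired. With the replicate number as a block, 7409 genes of the table were called, 40 members were higher and 0 lower in melanocytes, and Pold3 was at 0.01. Only 2 and 3 libraries per group were compared, and the shallowest held 17512381 counts.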

Other observations

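Cdk2, the S-phase kinase, was named here after its values were seen. It read 646.4 and 649.5 CPM in quiescent McSC and 202.1, 423.8 and 615.0 CPM in melanocytes, and it was not called (log2 fold change -0.65 ± 0.42 SE, edgeR adjusted p = 0.235). Under the replicate block it was called lower in melanocytes (-1.15, edgeR adjusted p = 0.0418). The low value in melanocyte replicate 1 stood beside a low value of the pigment gene Pmel, whose annotated span covers 7114 bases shared with Cdk2. Pmel read 2153 and 2203 CPM in quiescent McSC and 728.4, 4980 and 4781 CPM in melanocytes. The ratio of Cdk2 to Pmel was 0.3 and 0.295 in quiescent McSC and 0.277, 0.0851 and 0.129 in melanocytes. How the counting assigned reads from the shared bases was not tested.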
